A study of Mus musculus with 58 samples.

Results

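The Schlafen and PARP genes described here are 9 interferon-linked genes of mouse microglia, Slfn1, Slfn2, Slfn5, Slfn8, Slfn9, Parp9, Parp10, Parp12 and Parp14. All 9 were found by symbol among the 47643 genes of the count tables. The list was chosen with earlier results of these data known, so shares called beside all genes describe it and are no independent test. They were followed through 34 libraries made by QuantSeq, which counts reads from the 3′ ends of mRNA, in 8 groups and 4 comparisons. Wild-type primary microglia were given fibrils of full-length tau at 2 µg/ml (tau, 4 cultures) or vehicle (4 cultures) and collected after 24 h. Adult microglia came by CD11b magnetic sorting from PS19 mice, which carry a human P301S tau transgene, and from NTG mice without it (4 male mice each, 10.98 months old, except 2 NTG mice of 11.18 months). IkbkbCA primary microglia (5 cultures) carried Cx3cr1 CreERT2/+ and floxed-stop alleles of constitutively active IKKβ at the Rosa26 locus, and IkbkbWT microglia (5 cultures) the same floxed alleles with Cx3cr1 +/+ and no Cre. Ikbkb-/- primary microglia (4 cultures) carried Cx3cr1 CreERT2/+ with floxed Ikbkb, and Ikbkb+/+ microglia (4 cultures) floxed Ikbkb with Cx3cr1 +/+. Cx3cr1 drives the Cre in microglia. All 4 of these genotypes were given 4-hydroxytamoxifen in culture, but only the altered groups carry the Cre and lack 1 Cx3cr1 allele, which cannot be told apart from the change of Ikbkb. Primary microglia came from the hippocampi and cortices of pups. The labels do not say that cultures of a group came from separate litters, and p-values then measure the spread between these cultures. The tests take the cultures as independent.

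Type I interferons signal through the receptor Ifnar1 and Ifnar2 to transcription factors that bind interferon-stimulated response elements in promoters. Schlafen genes, a rodent-expanded family on mouse chromosome 11, are such targets and are known for restraining cell growth and viral replication. The PARP genes here encode relatives of poly(ADP-ribose) polymerase that attach or read single ADP-ribose units. Parp10, Parp12 and Parp14 are mono-ADP-ribosyltransferases, and Parp9 has little activity alone and works in a complex with the ubiquitin ligase Dtx3l. IKKβ, the product of Ikbkb, is the kinase that releases NF-κB from its inhibitor.

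The Schlafen genes lie in a cluster on chromosome 11 of GRCm38. Slfn5 (chr11:82951349-82964840, plus strand) is followed by Slfn9 (chr11:82978390-82991830, minus), Slfn8 (chr11:83002158-83020810, minus), Slfn2 (chr11:83065112-83070678, plus) and Slfn1 (chr11:83116849-83122670, plus). Parp14 (chr16:35832874-35871544, minus) and Parp9 (chr16:35938470-35972605, plus) are neighbours on chromosome 16, and Dtx3l (chr16:35926511-35939151, minus) overlaps the start of Parp9 on the other strand. Parp10 lies at chr15:76231174-76243441 (minus) and Parp12 at chr6:39086410-39118349 (minus).

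Upstream sequences of members that rose together are shown because interferon signalling ends at interferon-stimulated response elements in promoters. The motif searched was GAAA, any pair of bases and GAAA, on either strand. The RefSeq promoter table (GRCm38.p6, windows from 250 bases before to 50 bases after a start) held 7 windows of 6 of the 9 members, namely Slfn1, Slfn2, Slfn5, Slfn8, Slfn9 and Parp12. The motif was found in 4 of these 7 windows, those of Slfn5, Slfn8 (2 overlapping windows with 1 shared match) and Slfn9, and in 3.44% of all 32851 windows. A gamma-activated site, TTCNNNGAA, and an NF-κB site, GGGA and TTCC around any pair of bases, were each found in 0 of the 7 windows, against 8.30% and 1.47% of all windows. So few windows cannot set 0 apart from these shares, and the absence of such sites was not tested. Capitals mark the match or, in Slfn8 and Slfn9, its reverse complement, and Slfn2 is shown as a member with no match in its window.
Slfn5, chr11:82951852-82951984, plus strand: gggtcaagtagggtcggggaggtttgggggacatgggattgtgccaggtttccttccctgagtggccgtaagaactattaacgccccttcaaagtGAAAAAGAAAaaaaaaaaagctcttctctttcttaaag
Slfn8, chr11:83020811-83020960, minus strand: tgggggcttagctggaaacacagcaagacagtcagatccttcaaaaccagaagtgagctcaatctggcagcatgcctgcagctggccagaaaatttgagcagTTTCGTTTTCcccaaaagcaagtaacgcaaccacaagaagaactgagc
Slfn9, chr11:82991831-82991980, minus strand: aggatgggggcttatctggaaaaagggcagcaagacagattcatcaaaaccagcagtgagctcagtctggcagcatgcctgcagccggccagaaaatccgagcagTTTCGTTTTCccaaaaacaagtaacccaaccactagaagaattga
Slfn2, chr11:83064962-83065111, plus strand: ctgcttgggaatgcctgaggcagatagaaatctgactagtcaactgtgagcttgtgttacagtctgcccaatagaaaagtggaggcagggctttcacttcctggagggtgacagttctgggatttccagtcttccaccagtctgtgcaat

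The Slfn8 and Slfn9 stretches are near copies, with 130 identical bases of 143 aligned (90.9%), while Slfn2 shares 64.1% of aligned bases with Slfn8. The match lies 48 to 39 bases before the start in Slfn8, 45 to 36 bases before it in Slfn9 and 155 to 146 bases before it in Slfn5, whose RefSeq start lies inside the GENCODE gene. The coding sequences show the same order of kinship. Slfn8 and Slfn9 have 2733 coding bases each and are 92.7% identical, Slfn5 (2655 bases) is 63.2% identical to Slfn8, and Slfn1 (1014 bases) and Slfn2 (1137 bases) are short forms that are 71.7% identical to each other. Of the 50-base words in the last 500 bases of the Slfn8 transcripts, 25.5% also occur in Slfn9 or in Slfn10-ps, a Schlafen pseudogene between Slfn8 and Slfn2, and of those of Slfn9 15.8% occur in Slfn8 or Slfn10-ps. Counts of Slfn8, Slfn9 and Slfn10-ps are therefore uncertain among themselves, whereas Slfn1, Slfn2, Slfn5, Parp9 and Parp12 share no such word with another gene. Parp10 shares 10.6% of its words with the overlapping Plec, and Parp14 shares 4.58% with the overlapping Gm49730.

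Depth was 1672052 to 8349128 counts per library, and levels are CPM, the share of a library's counts scaled to a library of 1000000 counts with TMM factors over all 34 libraries. Microglia markers summed to 6052 to 28667 CPM in the 26 primary libraries and 38222 to 54054 CPM in the 8 libraries from adult mice, with counts for 12 of 12 genes. The T and NK cell list was at 0 to 8.35 CPM with Cd3e, Cd3g and Cd8a at 0 in every library, and the B cell list at 0 to 14.6 CPM. Granulocyte markers were at 1.49 to 394 CPM in primary cultures and 409 to 2609 CPM in cells from adult mice, monocyte and border macrophage markers at 59.8 to 1880 CPM and 343 to 836 CPM, astrocyte markers at 24.3 to 689 CPM and 687 to 2032 CPM, oligodendrocyte markers at 274 to 4783 CPM and 102 to 222 CPM, neuron markers at 4.61 to 135 CPM and 4.61 to 16.5 CPM, and endothelial and fibroblast markers at 40.1 to 213 CPM and 193 to 496 CPM. Ikbkb was at 18.4 to 24.6 CPM in Ikbkb-/- against 44.6 to 55.1 CPM in Ikbkb+/+ cultures (log2 fold change -1.20 ± 0.12, SE, FDR = 6.34e-07, edgeR), and at 44.1 to 59.5 CPM in IkbkbCA against 39.8 to 57.7 CPM in IkbkbWT cultures (0.17 ± 0.12, FDR = 0.405), so that Ikbkb was not called in IkbkbCA. The paper reports raised Ikbkb mRNA in IkbkbCA primary microglia by quantitative PCR. Whether these counts include RNA of the active kinase from the Rosa26 locus was not tested. Cx3cr1 was lower in both Cre-carrying groups, with log2 fold changes of -0.56 in IkbkbCA (FDR = 0.00153) and -1.16 in Ikbkb-/- (FDR = 1.63e-06). IkbkbWT replicates 1 to 3 had Xist at 1.67 to 2.75 CPM and Ddx3y at 141 to 172 CPM. IkbkbWT replicates 4 and 5 had Xist at 450.3 and 471 CPM and Ddx3y at 1.10 and 1.98 CPM. Xist was at 263 to 275 CPM in IkbkbCA replicates 1 to 3, and at 146 and 152 CPM in replicates 4 and 5. In Ikbkb+/+ cultures it was at 239 and 270 CPM in replicates 1 and 2, and 374 and 399 CPM in replicates 3 and 4. Whether cultures with like values shared a litter was not tested. PS19 replicate 1, labelled male, had Xist at 175 CPM with Ddx3y at 121 CPM.

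All 8 tested members were higher with tau at an FDR below 0.05 (edgeR quasi-likelihood test, Benjamini-Hochberg FDR over 10408 genes), with folds from 4.15 in Slfn9 to 16.1 in Slfn5, while 14.5% of all genes tested were higher. In all 8 the 4 tau cultures lay above the 4 vehicle cultures, as did 14.7% of all genes. The median log2 fold change of the 8 was 2.85 beside -0.011 over all genes tested, and Slfn1 was below the count filter.

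Slfn2, a short Schlafen known for keeping T cells and monocytes quiescent, was at 50.2, 50.9, 52.3 and 46.5 CPM in the 4 vehicle cultures and 475, 531, 427 and 345 CPM in the 4 tau cultures, a log2 fold change of 3.13 ± 0.15 (SE, FDR = 1.65e-15). Slfn5, a long Schlafen with a helicase-like domain, was at 3.2, 1.49, 4.32 and 5 CPM with vehicle and 63.4, 49.8, 42.8 and 50.6 CPM with tau (4.01 ± 0.29, FDR = 7.83e-12). Slfn8, another long Schlafen, was at 7.47, 5.78, 11.7 and 10.5 CPM and 116, 118, 109 and 106 CPM (3.71 ± 0.20, FDR = 2e-14). The vehicle cultures were low in all 3 genes and the lowest tau culture was several times the highest vehicle culture. Slfn9, near copy of Slfn8, was at 4.27, 1.12, 2.16 and 5.5 CPM and 9.45, 12.1, 13.6 and 13.4 CPM (2.05 ± 0.41, FDR = 0.000349), on 5 to 37 counts per library. Its vehicle values spread widely at these counts, and the smallest fold among the members was that of Slfn9.

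Parp14, a mono-ADP-ribosyltransferase with macrodomains that bind ADP-ribose, was at 27.8, 22.8, 18.6 and 28.5 CPM in vehicle and 243, 249, 201 and 212 CPM in tau cultures (3.21 ± 0.16, FDR = 3.13e-15), the highest fold among the 4 PARP members. Parp9, the Dtx3l partner, was at 5.34, 23, 13.8 and 9.5 CPM and 87.3, 69.1, 87.4 and 102 CPM (2.58 ± 0.25, FDR = 3.73e-09). Vehicle replicate 2 stood above the other vehicle cultures in Parp9 and still below all tau cultures. Parp12, a zinc-finger mono-ADP-ribosyltransferase, was at 14.9, 12.3, 12.5 and 24.5 CPM and 78.4, 76.7, 88.9 and 71.4 CPM (2.32 ± 0.20, FDR = 5.29e-10). Parp10, a mono-ADP-ribosyltransferase that also binds ubiquitin, was at 12.3, 5.41, 6.92 and 4 CPM and 37.8, 32.3, 33.9 and 36.2 CPM (2.33 ± 0.26, FDR = 8.71e-08). The groups did not overlap in either gene.

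Slfn1, the founding short Schlafen, had 46 counts in the 4 tau libraries together and 1 count in the 4 vehicle libraries, at 3.89, 7.96, 4.43 and 3.96 CPM in the tau cultures. The ratio per total count was 52.8, with an exact 95% counting interval of 9.02 to 2132, which covers counting error only. Without the count filter edgeR called it, with a log2 fold change of 5.21 (FDR = 9.84e-07) that depends on the prior count.

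Cell type markers moved in the same comparison. The 12 microglia markers summed to 6052 to 7749 CPM with vehicle and 13971 to 16108 CPM with tau, and the 6 astrocyte markers to 644 to 689 CPM and 350.2 to 414 CPM. Neuron markers summed to 111 to 135 CPM and 62.3 to 77.9 CPM, oligodendrocyte markers to 456 to 549.8 CPM and 274 to 330.2 CPM, and endothelial and fibroblast markers to 117 to 126 CPM and 65.0 to 73.8 CPM. Monocyte and border macrophage markers were higher with tau, at 59.8 to 92.0 CPM and 109.7 to 117 CPM, and B cell markers were at 0 with vehicle and 0.369 to 1.68 CPM with tau. None of these lists overlapped between the groups. Their part in the members' rise was not tested, and in bulk RNA fewer cells of a type and less RNA per cell cannot be told apart.

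**Figure D1:**
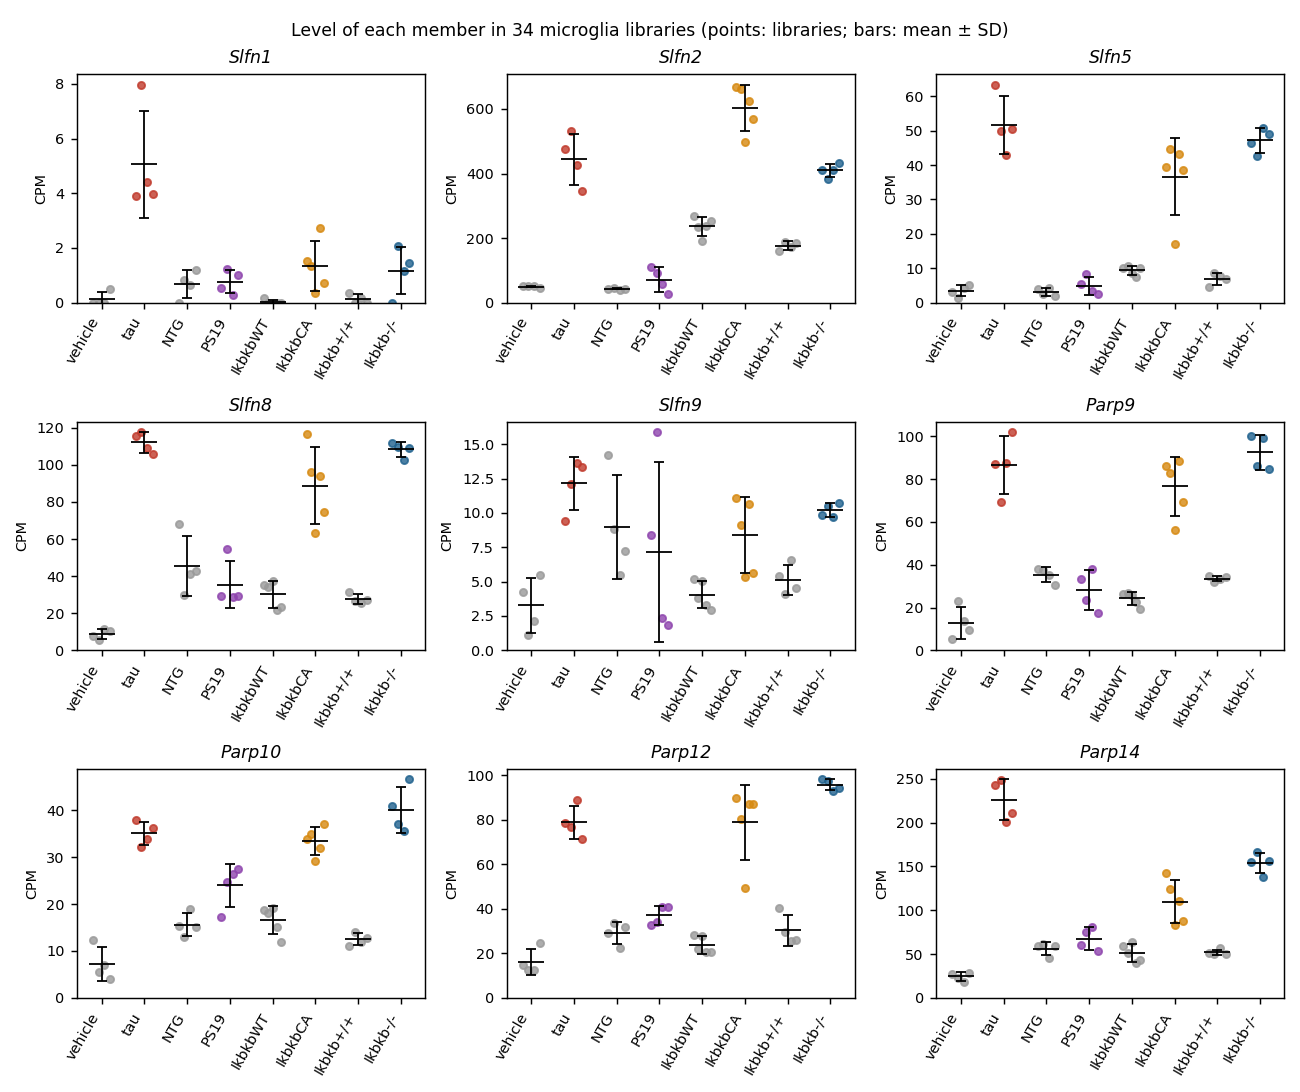
Level of each member (CPM, y axis from 0, own scale in each panel) in the 34 libraries, by group on the x axis. Points are libraries and black bars the mean ± SD. The tau, IkbkbCA and Ikbkb-/- points of all tested members lie above their controls, while PS19 and NTG points overlap in every panel, for example Slfn2 at 25.4 to 112 CPM in PS19 and 40.7 to 44.5 CPM in NTG.

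The constitutively active kinase was used by the study to turn NF-κB on. The same 8 tested members were higher in IkbkbCA than in IkbkbWT microglia at FDR below 0.05, beside 7.31% of all 11697 genes higher. The folds ran from 1.99 in Parp10 to 3.82 in Slfn5, with a median log2 fold change of 1.43 beside -0.047 over all genes tested. No member overlapped between the groups, as was so for 6.93% of all genes in this direction.

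Slfn2 was at 269.5, 233, 189.7, 237 and 252 CPM in the 5 IkbkbWT cultures and 669, 663, 498, 623 and 569.5 CPM in the 5 IkbkbCA cultures (1.33 ± 0.11, FDR = 1.77e-05). Slfn5 was at 10.2, 10.6, 8.74, 7.4 and 10 CPM and 39.6, 44.6, 17.1, 43.1 and 38.5 CPM (1.94 ± 0.23, FDR = 0.000207). Slfn8 was at 35, 33.9, 37.2, 21.7 and 23.2 CPM and 117, 95.9, 63.2, 93.8 and 74.5 CPM (1.54 ± 0.19, FDR = 0.000242). IkbkbCA replicate 3 was the lowest of its group in 9 of 9 members and yet above every IkbkbWT culture in the 8 tested. Slfn9 was at 5.18, 3.81, 5.02, 3.31 and 2.97 CPM and 11.1, 9.15, 5.33, 10.7 and 5.64 CPM (1.04 ± 0.26, FDR = 0.0213). This call of Slfn9 was the least firm, since its FDR was 0.0517 to 0.0607 when IkbkbWT replicate 2, 4 or 5 or IkbkbCA replicate 1, 2 or 4 was left out, with log2 fold changes of 0.93 to 1.01.

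Among the PARP members, Parp12 was at 28.2, 22, 27.9, 20.5 and 20.4 CPM in IkbkbWT and 89.9, 80.5, 49.4, 87.2 and 87 CPM in IkbkbCA cultures (1.71 ± 0.17, FDR = 5.04e-05). Parp9 was at 26.2, 26.8, 26, 22.5 and 19.5 CPM and 86.2, 82.8, 56.1, 88.6 and 69.4 CPM (1.64 ± 0.14, FDR = 1.9e-05). Both were about 3 times higher, with folds of 3.26 and 3.12. Parp14 was at 59.4, 51.1, 63.4, 39.5 and 43.2 CPM and 142, 125, 82.9, 111 and 88.3 CPM (1.08 ± 0.17, FDR = 0.00124). Parp10 was at 18.8, 18, 19.2, 15.1 and 11.9 CPM and 33.9, 34.9, 29.2, 32 and 37 CPM (0.99 ± 0.13, FDR = 0.000424). Slfn1 had 41 counts in the IkbkbCA and 1 in the IkbkbWT libraries, a ratio per total count of 43.8 with a counting interval of 7.44 to 1774, and without the filter a log2 fold change of 4.73 (FDR = 0.00238).

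The IkbkbWT libraries fall into the Xist and Ddx3y sets given above. Against replicates 1 to 3 alone 7 of the 8 members were higher, and Slfn9 had a log2 fold change of 0.84 (FDR = 0.133). Against replicates 4 and 5 alone the same 7 were higher, and Slfn9 had 1.43 (FDR = 0.0524). Monocyte and border macrophage markers summed to 1364 to 1880 CPM in IkbkbWT and 482 to 1026 CPM in IkbkbCA cultures, and granulocyte markers to 6.30 to 12.0 CPM and 16.8 to 85.1 CPM, and their part was not tested.

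Deletion of Ikbkb is the opposite change of the kinase, and the members were higher there as well. In Ikbkb-/- over Ikbkb+/+ microglia 8 of 8 tested members were higher at FDR below 0.05, beside 7.64% of 11242 genes, and 8 of 8 did not overlap, beside 9.11% of all genes. The folds ran from 2.01 in Slfn9 to 6.61 in Slfn5, with a median log2 fold change of 1.62 beside 0.00017 over all genes tested.

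Slfn5 was at 4.67, 8.6, 7.7 and 6.88 CPM in the 4 Ikbkb+/+ cultures and 46.4, 42.5, 50.9 and 49.1 CPM in the 4 Ikbkb-/- cultures (2.72 ± 0.15, FDR = 2.1e-10). Slfn8 was at 31.6, 26.4, 25.2 and 27.1 CPM and 112, 109.8, 103 and 109 CPM (1.99 ± 0.098, FDR = 4.93e-11). Slfn2 was at 159, 188, 172 and 186 CPM and 411, 385, 410.0 and 432 CPM (1.22 ± 0.079, FDR = 3e-09). The groups did not overlap in any of the 3 genes, and in Slfn5 the SD was 1.68 CPM in Ikbkb+/+ and 3.65 CPM in Ikbkb-/- cultures. Slfn9 was at 5.38, 4.1, 6.55 and 4.5 CPM and 9.83, 10.5, 9.67 and 10.7 CPM (1.00 ± 0.20, FDR = 0.00215), and with the Ddx3y level as a covariate in a fit of the 18 Ikbkb libraries it had 0.83 (FDR = 0.0724).

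Parp12 was at 40.6, 29.5, 25.4 and 26.2 CPM in Ikbkb+/+ and 98.3, 97.4, 93.1 and 94.2 CPM in Ikbkb-/- cultures (1.70 ± 0.13, FDR = 1.86e-08). Parp10 was at 11.1, 14.1, 12 and 12.8 CPM and 41, 36.9, 35.5 and 46.6 CPM (1.67 ± 0.13, FDR = 5.5e-08). In both genes the lowest Ikbkb-/- culture lay well above the highest Ikbkb+/+ culture. Parp14 was at 51.3, 50.4, 56.7 and 50.3 CPM and 155, 166, 138 and 156 CPM (1.56 ± 0.088, FDR = 3.95e-10). Parp9 was at 34.8, 31.7, 33.3 and 34.4 CPM and 100, 86.1, 99 and 84.9 CPM (1.46 ± 0.096, FDR = 3.9e-09). Slfn1 had 23 counts in the Ikbkb-/- and 2 in the Ikbkb+/+ libraries, a ratio of 14.6 with a counting interval of 3.60 to 128, with 0 counts in Ikbkb-/- replicate 1.

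Oligodendrocyte markers summed to 328 to 425 CPM in Ikbkb+/+ and 575 to 687 CPM in Ikbkb-/- cultures, monocyte and border macrophage markers to 1482 to 1812 CPM and 415 to 730.0 CPM, and endothelial and fibroblast markers to 64.3 to 112 CPM and 161 to 213 CPM, and their part was not tested. The Ikbkb-/- cultures had Xist at 5.57 to 10.4 CPM and Ddx3y at 154 to 172 CPM. The Ikbkb+/+ cultures had Xist at 239 to 399 CPM and Ddx3y at 34.9 to 68.2 CPM, so that the genotype and the sex-linked reads differ together. With the Ddx3y covariate, in a fit of both genotype experiments, 7 of the 8 members were called higher. Ddx3y did not overlap between Ikbkb-/- and Ikbkb+/+ cultures, so its slope rested largely on the IkbkbWT cultures of the other experiment (1.10 to 172 CPM). That fit therefore cannot separate the sex-linked reads from the genotype, and their part was not tested.

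In microglia from PS19 mice none of the members was called. Of the 8 tested, 0 had an FDR below 0.05 in either direction (edgeR, 11323 genes), beside 0.0707% of all genes, and 0 under each alternative run, DESeq2 and limma-voom included. An unadjusted p below 0.05 in either direction was found for 1 of the 8 members, Parp10, which was higher, and for 977 of all 11323 genes. Slfn2 was at 41.7, 44.5, 40.7 and 43.9 CPM in the 4 NTG mice and 112, 92.6, 57 and 25.4 CPM in the 4 PS19 mice (0.72 ± 0.36, FDR = 0.615), with 3 PS19 mice above every NTG mouse and PS19 replicate 4 below. Parp10 was at 15.4, 13, 18.9 and 15 CPM and 17.2, 24.8, 26.5 and 27.5 CPM (0.58 ± 0.24, FDR = 0.525), with PS19 replicate 1 inside the NTG range. Slfn8 was at 68, 29.8, 41 and 42.7 CPM and 29, 54.4, 28.7 and 29.2 CPM (-0.40 ± 0.28, FDR = 0.722), and 3 of the 4 PS19 mice lay below the lowest NTG mouse. No member was without overlap in either direction, beside 3.86% of all genes higher and 2.04% lower without overlap. The other members overlapped as well, for example Parp14 at 45.6 to 61.2 CPM in NTG and 53.1 to 81.4 CPM in PS19 mice, Parp12 at 22.5 to 33.6 CPM and 32.6 to 40.9 CPM, and Parp9 at 30.6 to 37.8 CPM and 17.6 to 38 CPM. The members Slfn8, Slfn9 and Parp9 had lower point estimates, with 95% intervals that held 0 (-1.02 to 0.21, -1.71 to 0.94 and -0.90 to 0.19). Higher estimates whose intervals also held 0 were those of Slfn2 (-0.055 to 1.49), Slfn5 (-0.56 to 1.61), Parp12 (-0.12 to 0.76) and Parp14 (-0.20 to 0.66). The upper bounds lay below the tau estimates of all 8 members, which came from cultures and another experiment. Slfn1 had 15 counts in PS19 and 7 in NTG libraries, a ratio of 1.05 with a counting interval of 0.402 to 3.04. Both NTG mice of 11.18 months lack a PS19 counterpart, and with age as a covariate 0 members were called.

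**Figure D2:**
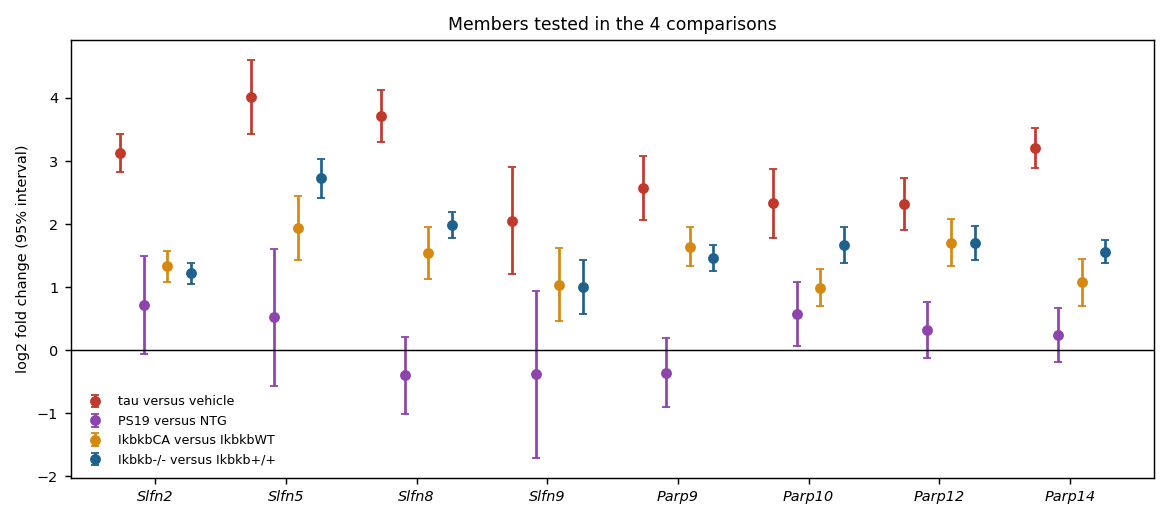
Log2 fold change (y axis) of the 8 tested members on the x axis in the 4 comparisons, with 95% intervals from the edgeR fits. Tau, IkbkbCA and Ikbkb-/- estimates lie above 0, and the PS19 intervals include 0 except for Parp10 (0.064 to 1.09, FDR = 0.525).

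The differences of IkbkbCA and of Ikbkb-/- from their controls were compared in 1 fit of the 18 libraries of both genotype experiments. Of the 8 tested members 0 differed at FDR below 0.05 (edgeR), beside 3.12% of 12352 genes. An unadjusted p below 0.05 was found for 3 members and for 1889 of all 12352 genes. The estimate nearest to the threshold was that of Parp10, with log2 fold changes of 0.99 in IkbkbCA and 1.67 in Ikbkb-/-, a difference of -0.67 ± 0.19 (FDR = 0.063, 95% interval -1.06 to -0.27). Slfn5 differed by -0.78 ± 0.31 (FDR = 0.217, interval -1.43 to -0.14) and Parp14 by -0.47 ± 0.21 (FDR = 0.291, interval -0.91 to -0.028). The intervals of Slfn2 (-0.17 to 0.42), Parp9 (-0.17 to 0.56) and Parp12 (-0.45 to 0.53) held 0. In Slfn8 the difference was -0.43 ± 0.24 (FDR = 0.413, interval -0.93 to 0.069), in the direction of Parp10, Slfn5 and Parp14. The interval of Slfn9, the widest, was -0.65 to 0.77 and leaves room for differences in either direction. For Parp10 the call came with IkbkbWT replicate 5 left out, where the difference was -0.77 (FDR = 0.0119).

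The rise with tau was larger than that in IkbkbCA for part of the family. In 1 fit of the 18 libraries of both experiments, which share no controls, 5 of 9 tested members had a larger rise with tau at FDR below 0.05, beside 5.86% of 12841 genes. These were Slfn8 (difference 2.09 ± 0.30, FDR = 0.00014), Parp14 (2.05 ± 0.25, FDR = 1.66e-05), Slfn5 (1.99 ± 0.42, FDR = 0.00412), Slfn2 (1.73 ± 0.18, FDR = 3.61e-06) and Parp10 (1.26 ± 0.29, FDR = 0.0093). In Parp12 the difference was 0.54 ± 0.28 (FDR = 0.247, interval -0.038 to 1.11), in Parp9 0.88 ± 0.33 (FDR = 0.111) and in Slfn9 0.91 ± 0.51 (FDR = 0.29). The Parp9 value rests on vehicle replicate 2, without which the difference was 1.42 (FDR = 0.00600). Slfn1 passed the filter of this fit on few counts and had a difference of 0.82 with an SE of 5.75. Of the interferon targets 20 of 39 tested also rose more with tau, with a median difference of 1.31 beside 1.26 in the members. Of the microglia markers 7 of 12 did so, with a median of 0.75. The controls differed in these markers, at 6052 to 7749 CPM in vehicle and 15044 to 21516 CPM in IkbkbWT cultures. The part of the markers was not tested. The experiment, the tamoxifen and the treatment differ together between the tau and the IkbkbCA cultures and cannot be told apart.

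**Figure D3:**
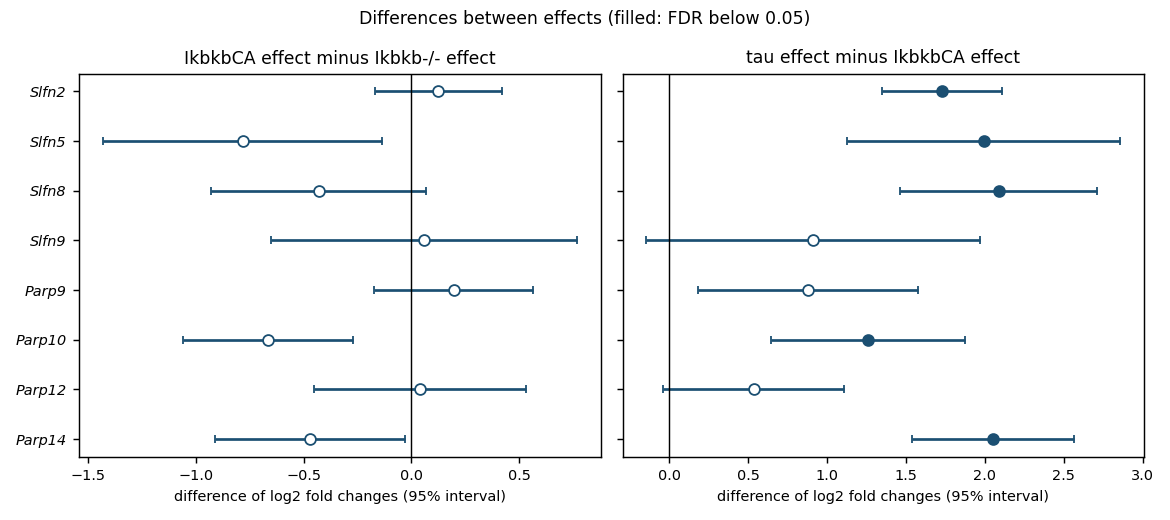
Differences between effects (x axis, difference of log2 fold changes with its 95% interval) for 8 members on the y axis, from the fits of 18 libraries, filled where FDR is below 0.05. On the left, 0 of 8 differ between IkbkbCA and Ikbkb-/-, beside 3.12% of all genes. On the right 5 are larger with tau than with IkbkbCA, beside 5.86% of all genes.

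Baseline levels of the members differed between experiments. On the common CPM scale, which joins separate experiments, the 3 highest groups were tau, IkbkbCA and Ikbkb-/- for 8 of the 9 members, in an order that changed from gene to gene. Slfn2 was highest in IkbkbCA (604 ± 71.2 CPM, SD, n = 5), then tau (444 ± 78.7, n = 4) and Ikbkb-/- (409 ± 19.5, n = 4), where neighbours overlapped, and then IkbkbWT (236 ± 29.7), Ikbkb+/+ (176 ± 13.6) and PS19 (71.7 ± 38.2), each apart from the one before, with vehicle (50 ± 2.48) and NTG (42.7 ± 1.76) last. Parp14 was highest in tau (226 ± 23.5), apart from Ikbkb-/- (154 ± 11.5), and lowest in vehicle (24.4 ± 4.64), apart from IkbkbWT (51.3 ± 10.2). For Slfn9 no group stood apart from its neighbour in the order, and NTG (8.95 ± 3.79) came between Ikbkb-/- (10.2 ± 0.516) and IkbkbCA (8.38 ± 2.75). Slfn8, Slfn9, Parp9, Parp10 and Parp12 were also lowest in vehicle. The controls were not alike, for example Slfn2 at 46.5 to 52.3 CPM in vehicle and 189.7 to 269.5 CPM in IkbkbWT cultures.

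The 5 Schlafen genes shared their counts differently by group. These shares are read mainly between groups within a gene, although 3′ tag counts do not grow with transcript length. Slfn8 made 13.3% ± 3.22 (SD, n = 4) of their summed counts with vehicle and 18.1% ± 1.74 with tau, and Slfn5 5.23% ± 2.06 and 8.34% ± 1.49. In Ikbkb-/- and Ikbkb+/+ cultures Slfn8 was at 18.8% ± 1.01 and 12.8% ± 1.92, Slfn5 at 8.19% ± 0.480 and 3.20% ± 0.665, and Slfn2 at 71.0% ± 0.754 and 81.5% ± 1.75. In IkbkbCA and IkbkbWT cultures Slfn2 was at 82.0% ± 2.14 and 84.3% ± 3.72. In cells from NTG mice Slfn8 and Slfn2 had like shares, at 44.0% ± 7.66 and 43.4% ± 7.86. These shares are a description, and their differences were not tested.

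**Figure D4:**
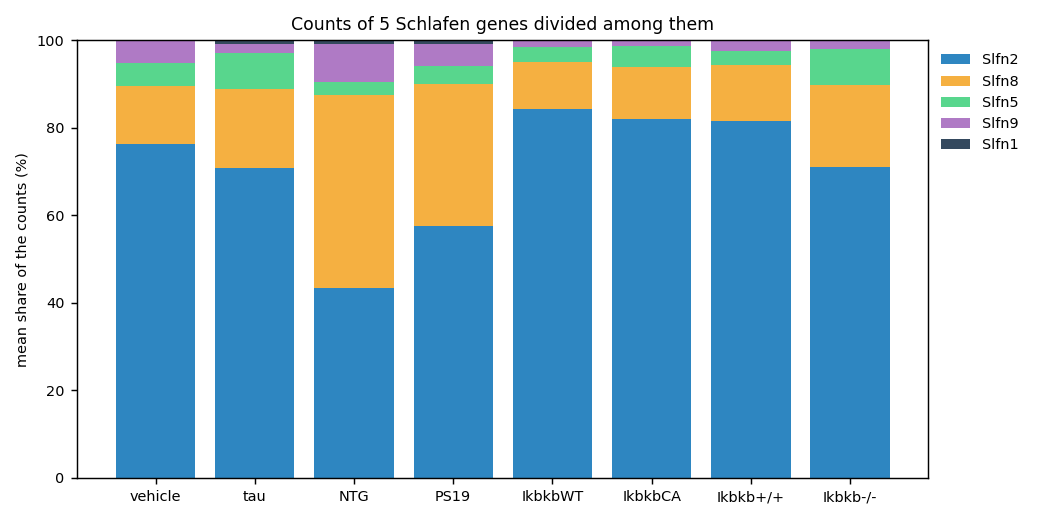
Mean share (%, stacked from 0 to 100) of each of 5 Schlafen genes in their summed counts, by group on the x axis. Slfn2 holds 84.3% in IkbkbWT and 43.4% in NTG, where Slfn8 holds 44.0%.

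Of the 12 other PARP family genes, 3 of 11 tested rose and 1 fell with tau, 2 of 12 rose with IkbkbCA, 2 of 12 rose with Ikbkb-/- and 0 of 12 were called in PS19, with median log2 fold changes of 0.21, 0.021, 0.040 and -0.044. Over all genes 14.5% were higher with tau, 7.31% with IkbkbCA and 7.64% with Ikbkb-/-. Zc3hav1, the antiviral zinc-finger protein that lacks PARP activity, rose in all 3 primary comparisons, by 1.31 ± 0.15 with tau, 0.51 ± 0.092 in IkbkbCA and 0.62 ± 0.093 in Ikbkb-/- microglia on the log2 scale. Parp11, a mono-ADP-ribosyltransferase of the nuclear envelope, rose by 0.87 ± 0.19 with tau, 1.22 ± 0.16 in IkbkbCA and 1.44 ± 0.12 in Ikbkb-/- microglia. Tiparp, an aryl hydrocarbon receptor target, fell by 0.50 with tau (FDR = 0.0341). Parp1, the main DNA-damage PARP, was at 91.6 to 116 CPM with vehicle and 108 to 123 CPM with tau (FDR = 0.286), with an interval of -0.16 to 0.16 in IkbkbCA.

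**Figure D5:**
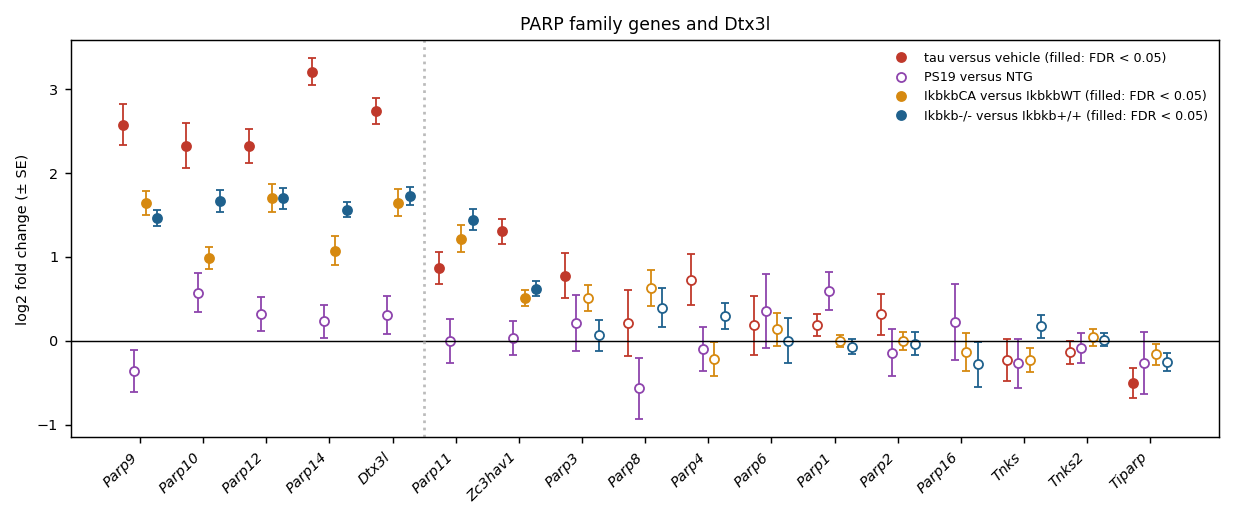
Log2 fold change ± SE (y axis) of the PARP family genes and Dtx3l in the 4 comparisons, filled where FDR is below 0.05, with members and Dtx3l left of the dotted line. Left of it all tau, IkbkbCA and Ikbkb-/- points are filled, and right of it those of Zc3hav1 and Parp11, and with tau also Parp3 and Tiparp.

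Among the genes of ADP-ribose partners and removal, Dtx3l rose in the same 3 comparisons as its partner Parp9. It rose by 2.74 ± 0.16 with tau, 1.65 ± 0.16 in IkbkbCA and 1.72 ± 0.11 in Ikbkb-/- microglia, with 0.31 ± 0.23 in PS19 (FDR = 0.741). Of the 9 genes of this list, 2 of 7 tested rose with tau, 1 of 8 rose and 1 fell with IkbkbCA, 1 of 8 rose with Ikbkb-/- and 0 of 7 were called in PS19. The others called were Adprh, which removes ADP-ribose from arginine, with tau (0.39 ± 0.13, FDR = 0.0282) and Macrod1, a mitochondrial ADP-ribose hydrolase, which fell with IkbkbCA (-1.03 ± 0.22, FDR = 0.00855).

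Other Schlafen genes were low. Slfn10-ps was at 3.5 to 8.54 CPM with vehicle and 13.8 to 17 CPM with tau (1.27 ± 0.31, FDR = 0.00228) and at 3.44 to 6.46 CPM and 10 to 12.6 CPM in Ikbkb+/+ and Ikbkb-/- cultures (1.18 ± 0.22, FDR = 0.000917), and in IkbkbCA its value was 0.25 ± 0.20 (FDR = 0.485). It shares sequence with Slfn8 and Slfn9. Slfn3 had 16 counts with tau and 4 with vehicle, a ratio of 4.59 with a counting interval of 1.48 to 18.9. Its ratio was 2.40 (1.32 to 4.51) in Ikbkb-/- over Ikbkb+/+, 1.70 (1.07 to 2.74) in IkbkbCA over IkbkbWT and 2.44 (0.273 to 116) in PS19 over NTG libraries. Slfn4 had 10 counts in IkbkbCA and 3 in IkbkbWT libraries, a ratio of 3.57 (0.918 to 20.2). It had 15 in PS19 and 2 in NTG libraries (3.66, 0.852 to 33.0), and 5 in Ikbkb-/- and 1 in Ikbkb+/+ libraries (6.34, 0.710 to 300). Slfn14 had 5 counts in the 34 libraries together. Slfnl1 and Slfn5os, the antisense gene of Slfn5, had 0, which allows up to 0.0199 CPM over all 34 libraries.

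Other interferon genes were called in the same 3 comparisons. Of 40 interferon targets 38 of 38 tested rose with tau, 37 of 39 with IkbkbCA, 37 of 39 with Ikbkb-/- and 0 of 35 in PS19, with median log2 fold changes of 3.80, 2.23, 2.42 and 0.34. Oas2, a double-stranded RNA sensor, rose by 6.44 ± 0.71 with tau, and Oas3 by 4.72 ± 0.57 in IkbkbCA and 5.36 ± 0.28 in Ikbkb-/- microglia. Of 19 interferon signalling genes, 12 of 14 tested rose with tau, 9 of 15 with IkbkbCA, 6 of 15 with Ikbkb-/- and 0 of 15 in PS19. Irf7, the interferon regulatory factor that amplifies the response, rose by 6.32 ± 0.19 with tau, 4.20 ± 0.38 in IkbkbCA and 5.07 ± 0.20 in Ikbkb-/- microglia.

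NF-κB induces the NF-κB feedback genes, and some of them restrain it. Of 18 such genes, 15 of 17 tested rose and 1 fell with tau, 12 of 18 rose with IkbkbCA and 1 of 17 rose, 5 fell and 11 were not called with Ikbkb-/-, and 0 of 18 were called in PS19, with medians of 1.87, 1.36, -0.27 and 0.34. Nfkbia, the inhibitor that NF-κB induces, fell by 1.60 on the log2 scale in Ikbkb-/- (FDR = 0.000385). The effects of IkbkbCA and Ikbkb-/- differed in 12 of 18 of these genes (all 12 higher with IkbkbCA, Nfkbia with an interval of 2.24 to 3.77, FDR = 7.3e-05). Of all 12352 genes 3.12% differed, and of the 8 members 0, a count near that share. The intervals of Parp10, Slfn5 and Parp14 did not hold 0. Ccl5, a chemokine that interferon also induces, rose in both, by 4.42 ± 0.49 and 3.55 ± 0.27.

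Over the 34 libraries, with the mean of each experiment removed, the members varied together, and libraries of a condition share its treatment or genotype. Pearson's r between members was 0.60 to 0.95 over 36 pairs with a median of 0.86, highest between Slfn8 and Parp14. With the mean of each group removed instead, r was -0.32 to 0.62 with a median of 0.15, and the highest values were those of Slfn9 with Slfn5 (0.62) and with Slfn8 (0.62). Libraries of an experiment share their preparation. The genes most like each member were ranked among those with a mean of at least 10 counts. Slfn5 was nearest to Isg15 (r = 0.97), H2-T24 (0.96) and Irf7 (0.96), Slfn8 to H2-T24 (0.97), Phf11d (0.96) and Znfx1 (0.96), and Slfn2 to H2-T24, Ifi27l2a and Psme1 (0.94 each). Parp12 was nearest to Ifit1 (0.98), Tor3a (0.97) and Irf7 (0.97), Parp14 to Phf11d (0.97), Ifi203 (0.97) and Rtp4 (0.97), Parp9 to Epsti1 (0.96) and Ddx58 (0.95), and Parp10 to Sp100, Rnf213 and Dhx58 (0.95 each). Slfn1 was nearest to Nmi (0.89), Trim34a (0.88) and Phf11b (0.88), and Slfn9 to Resf1 (0.90), Gm13166 (0.86) and Ccdc59 (0.86).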

How the data were processed

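The authors mapped QuantSeq reads to GRCm38 with GENCODE annotation on the Lexogen BlueBee platform and deposited 1 table of raw counts per library for 47643 Ensembl genes, with 5 further lines for reads not counted on a gene, which were left out (12.4% to 38.3% of uniquely mapped reads fell outside genes). The labels name STAR, RSEM, edgeR and limma. The paper ties STAR mapping to the cortex samples, and gives a version of the Lexogen QuantSeq pipeline for the libraries used here. Versions of the other tools and the use of strand in counting are not given in the sources used here. Symbols came from GENCODE M21 (47224 identifiers). Samples were grouped by their labels, and the 24 cortex samples were not analysed here.

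Each comparison was fitted on its 2 groups in R 4.3.3 with edgeR 4.0.16 (TMM, filterByExpr with minimum count 10 and minimum total 15, quasi-likelihood test, Benjamini-Hochberg FDR below 0.05), without a replicate block. The standard error was the log2 fold change divided by the square root of F. Differences between effects were fitted on 18 libraries. Log2 CPM used a prior count of 2. Python 3.11.15 with biopython 1.88 gave alignments, and coding sequences came from GENCODE M21 because no protein table was used here. Alternatives were RLE normalization, total-count scaling, DESeq2 1.42.0, limma-voom (limma 3.58.1), other count filters, an age covariate, 1 fit of 18 libraries and leaving out each library. The IkbkbWT subsets, the Ddx3y covariate and the sequence comparisons were chosen after seeing the data. The members and gene lists were chosen with earlier results of these data known. Named genes were all members, Ikbkb, Cx3cr1, Dtx3l, Zc3hav1, the other Schlafen genes, at most the 2 highest and 2 lowest called genes of each list, and the 3 genes most like each member, of which 1 is not reported here. Tiparp and Macrod1 were such lowest genes, and Parp1, Parp3 and the sex-linked Xist and Ddx3y were named after their values were seen. Depth was 1672052 to 8349128 counts. Intervals on summed counts are exact and cover counting error only. The procedure was tested on simulated counts. Of 56 pairs of libraries within groups, 0 were identical.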

Additional observations from a re-analysis of the deposited data

Results flagged for a closer look

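The level of each member in each group was checked for a library far from the others, with Dixon's 95% limit. In 72 checks 8 were past it, and chance gives about 1 in 20 for independent, normally distributed values. The checks share libraries, and 1 count beside 0 in all other libraries of a group always passes the limit. In IkbkbCA, replicate 3 stood below the others in Slfn5 (17.1 CPM, nearest 38.5) and in Parp12 (49.4 CPM, nearest 80.5). This library was the lowest of its group in 9 of 9 members. In PS19, replicate 2 stood above the others in Slfn8 (54.4 CPM, nearest 29.2).

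Parp14 was low in NTG replicate 3 (45.6 CPM, nearest 58.7) and high in Ikbkb+/+ replicate 3 (56.7 CPM, nearest 51.3). Slfn1 was high in tau replicate 2 (7.96 CPM, nearest 4.43), in vehicle replicate 4 (0.500 CPM, 1 count, the others at 0) and in IkbkbWT replicate 1 (0.162 CPM, 1 count, the others at 0).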

How the results depend on the processing

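Of 113 recounts of called members under the alternatives, 109 stayed within 1.5 times the reported count. With at least 10 counts required in every library, 5 members were tested and called with tau, and 3 in the difference between tau and IkbkbCA, because fewer members were tested. In the difference between IkbkbCA and Ikbkb-/- 1 member, Parp10, was called with total-count scaling (-0.71, FDR = 0.0427), and 0 to 1 when each library was left out. Leaving out each library gave 8 called members with tau, 7 to 8 with IkbkbCA, 8 with Ikbkb-/-, 0 in PS19 and 5 to 6 for tau minus IkbkbCA. Total-count scaling moved the median of all genes by -0.16 with tau and -0.11 with IkbkbCA, and the 8 members stayed higher.

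The sign turned for Parp12 in the difference between IkbkbCA and Ikbkb-/- with total-count scaling (-0.0037) and limma-voom (-0.035), and for Slfn9 in PS19 with the age covariate (0.11), and the cause was not tested. Without single libraries that difference was -0.10 to 0.17 in Parp12 and -0.079 to 0.19 in Slfn9, and Slfn1 in tau minus IkbkbCA was -0.16 to 2.98. Parp9 in tau minus IkbkbCA was called without the count filter (0.96, FDR = 0.0302). With total-count scaling the mean level of Slfn2 was 56.8 CPM in vehicle and 38.3 CPM in NTG, and that of Parp9 31.8 CPM in NTG. No paired analysis was possible because replicate numbers are accession order and pair no samples. Slfn1 and Slfn9 are limited by counts of 0 to 78 per library.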
